A study of Mus musculus with 6 samples.

Results

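Molecular chaperones, the proteins that bind other proteins while they fold, were followed in lymph node dendritic cells (DCs) after antibiotics. Members were every gene whose symbol in the platform annotation begins with Hsp followed by a digit or a letter from a to h, with Dnaja, Dnajb or Dnajc, with Cct and a digit from 2 to 8, or with Pdia and a digit, together with Calr and Canx. The rule took 80 of the 16593 named genes on the platform, and 41 of the 80 had a probe that was detected on at least 3 of the 6 arrays and could be tested. By compartment, 10 of the 41 act in the endoplasmic reticulum (ER), 19 in the cytosol and 9 in mitochondria, and 3 belong to none of these classes. The rule goes by name, so it also takes Hspg2, which encodes the matrix proteoglycan perlecan and no chaperone.

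DCs had been sorted by flow cytometry from peripheral lymph nodes of mice that received broad-spectrum antibiotics by oral gavage over 10 days (3 arrays), and of mice listed as having no treatment (3 arrays). Strain, age, the antibiotics used, the sorting gate and the number of animals behind each array are not given in the sources used here, and no gavage is listed for the untreated mice, so that gavage and antibiotics cannot be told apart. The DC genes Itgax, H2-Ab1, Cd74 and Zbtb46 were detected, whereas Flt3, the receptor for a DC growth factor, was detected on 0 arrays. Between 6876 and 7674 probes were detected per array, and the arrays correlated at 0.963 to 0.984 over the 6331 rows tested. Antibiotics replicate 1 stood apart from the other arrays, at -25.3 on the first principal component against 1.36 to 11.5.

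In the cytosol, the Hsp70 proteins take unfolded clients from J proteins, the Hsp110 proteins exchange their nucleotide, and the ring-shaped CCT complex folds actin and tubulin. Heat shock factor 1 raises many of these genes under stress by binding repeats of the triplet GAA. In the ER, BiP (Hspa5) and Grp94 (Hsp90b1) fold secreted and membrane proteins, the lectins calnexin and calreticulin hold glycoproteins, and the Pdia enzymes form disulfide bonds. The unfolded protein response raises ER chaperones through a promoter sequence called the ER stress element. In DCs, calreticulin and Pdia3 also belong to the complex that loads peptides onto MHC class I.

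Both elements were searched in the members' promoters, a feature of sequence that uses no array value. Promoter windows of 300 bases, from 250 before to 50 after each gene's start, came from RefSeq (GRCm38.p6) and covered 67 of the 80 members and 33 of the 41 tested. The ER stress element, searched on both strands as CCAAT and CCACG with 9 bases of any kind between them, lay in 39 of 32851 windows (0.119%). It was found for 6 of 15 ER members with a window (Hspa5, Hsp90b1, Calr, Canx, Pdia6 and Dnajc3) and for 0 of 34 cytosolic members. The heat shock element pair, searched as GAA and TTC with 2 bases of any kind between them, which reads the same on both strands, lay in 7.86% of windows. It was found for 10 of 34 cytosolic members, among them Hspa1a, Hsph1, Hspb1, Hspb6 and Dnajb6, for 0 of 15 ER members, for 3 of 11 members of no class (Cct8l1, Dnajc27 and Dnajc5g) and for Hspd1 and Hspe1 of the mitochondria, whose windows share 285 bases. No member held both elements. A member was counted if any of its windows matched, with 16 windows for the 15 ER members and 48 for the 34 cytosolic ones. The shares over all promoters count single windows instead. A match describes the letters in these windows and shows no binding. The stretches below lie before the start site, and capitals mark the match:
Hsp90b1 (ER, chr10:86705598-86705694, minus strand): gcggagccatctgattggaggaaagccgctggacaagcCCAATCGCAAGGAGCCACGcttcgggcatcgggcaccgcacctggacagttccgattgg
Dnajc3 (ER, chr14:118937787-118937885, plus strand): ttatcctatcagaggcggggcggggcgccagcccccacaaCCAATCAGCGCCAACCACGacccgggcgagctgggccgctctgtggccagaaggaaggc
Hspa5 (ER, chr2:34771985-34772083, plus strand): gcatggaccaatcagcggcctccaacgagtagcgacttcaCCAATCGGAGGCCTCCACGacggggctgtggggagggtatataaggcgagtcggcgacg
Hspa1a (cytosol, chr17:34972213-34972300, minus strand): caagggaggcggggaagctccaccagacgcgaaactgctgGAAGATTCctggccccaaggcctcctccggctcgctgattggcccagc
Hspb1 (cytosol, chr5:135887762-135887849, plus strand): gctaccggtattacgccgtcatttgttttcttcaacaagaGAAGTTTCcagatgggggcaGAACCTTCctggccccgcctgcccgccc

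Which members could be measured depended on the probes. Of the 39 members not tested, 32 were detected on 0 arrays and 7 on 1 or 2. Several of the main chaperones were among them. Hspa5 had raw intensities of 86.5 to 104.1, Calr of 79.5 to 86.8 and Canx of 79.8 to 83.5, where the array medians lay between 84.7 and 89.2, and none of the 3 was detected on any array. Hsp90aa1, the stress-inducible cytosolic Hsp90, had 2 probes, both detected on 0 arrays. Pdia6 was detected on 2 arrays, and the CCT subunit genes Cct2 and Cct5 on 0. A dim probe does not show a silent gene here. Hspa8, the constitutive Hsp70, had 1 probe between 6757.8 and 11167 and another between 81.1 and 96.3. In all, 17 tested members had further probes, 21 of them, and 18 of the 21 were detected on 0 arrays.

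Most tested cytosolic chaperones lay below the untreated level after antibiotics by a small amount, and none passed the test. Of the 19 cytosolic members 17 had a negative and 2 a positive log2 difference, at a median of -0.21. Of the 10 ER members 7 were lower and 3 higher, at a median of -0.06. Mitochondrial members had 6 lower and 3 higher, also at -0.06. Over all 6331 rows tested 46.4% were lower, 53.6% were higher and the median was 0.017, and with the arrays scaled by their medians 59.4% were lower. Pdia4, Dnajc18 and Hspb2, all counted as lower, were each detected on 1 antibiotics array, and on 3, 2 and 3 untreated ones. The filter thus kept them mainly through the untreated group. With only probes detected on all 6 arrays, 5 of 8 ER members were lower, at a median of -0.01. Of cytosolic members 13 of 15 then were, at -0.23, beside 45.3% of all rows. Members on the same arrays vary together, so the counts are a description and carry no test. In bulk RNA, fewer cells of a type and less RNA per cell cannot be told apart.

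Antibiotics against untreated gave 0 of 41 members at an adjusted p of 0.05 (limma, Benjamini-Hochberg over all rows), where 0% of all rows passed, and the smallest adjusted p of a member was 0.555. Before adjustment, 3 of the 41 members had a p under 0.05, namely Cct6a, Dnajc24 and Dnajc16, all lower, beside 7.74% of all rows (4.33% lower). In 6 members the groups did not overlap, 5 of them lower, beside 13.7% of all rows (6.62% lower). Counted in either direction, both shares lay near the background. For any 1 gene, exact permutation of 3 and 3 arrays allows no p under 0.1.

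**Figure D1:**
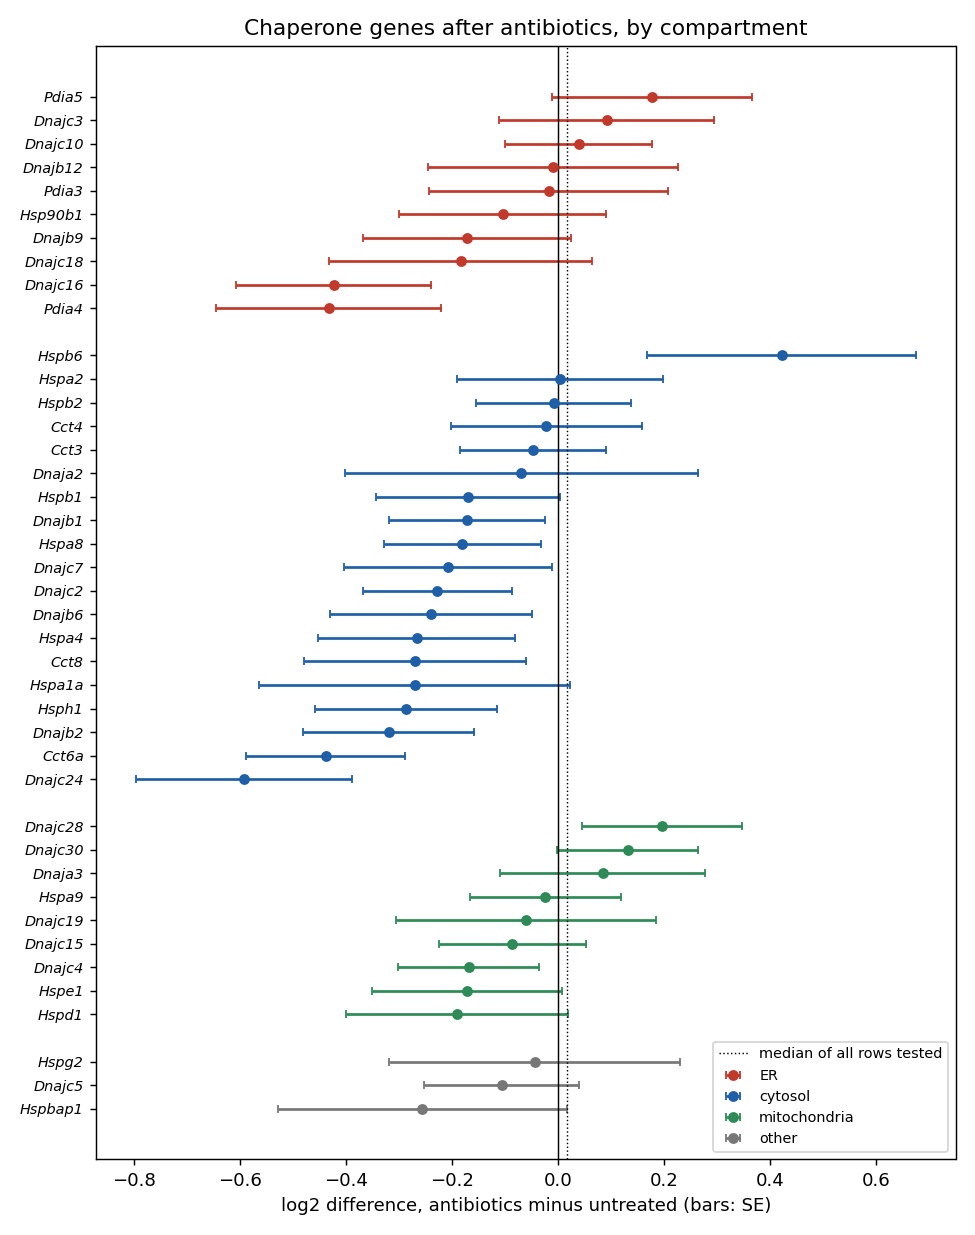
Log2 difference (antibiotics minus untreated, horizontal axis) of the 41 tested chaperone genes by compartment, with limma's SE as bars and the median of all rows as a dotted line. Cytosolic points run from -0.59 (Dnajc24) to 0.42 (Hspb6), 17 of 19 left of 0, and ER points from -0.43 (Pdia4) to 0.18 (Pdia5), 7 of 10 left of 0.

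The compartments were also followed on each array, as the mean deviation of the members from their own mean over the 6 arrays. The cytosolic class stood at -0.15, -0.07 and -0.05 on antibiotics replicates 1 to 3, against 0.07, 0.11 and 0.09 on untreated replicates 1 to 3 (log2). All 3 antibiotics arrays thus lay below the 3 untreated ones. The ER class stood at -0.13, -0.03 and 0.00 after antibiotics, against -0.05, 0.10 and 0.10 without, and the groups overlapped because untreated replicate 1 lay below antibiotics replicates 2 and 3. Mitochondrial members overlapped as well, at -0.02, 0.06 and -0.09 after antibiotics against -0.10, 0.03 and 0.12 without.

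**Figure D2:**
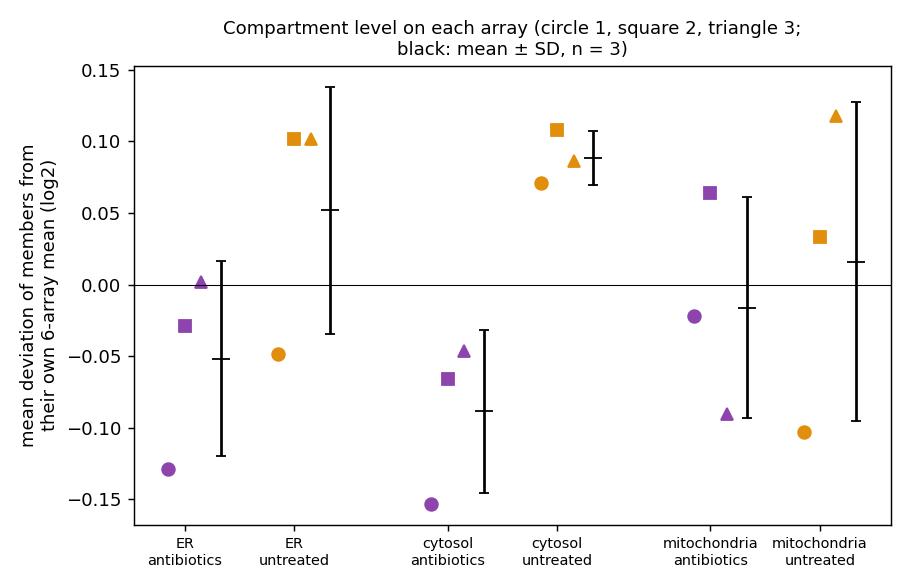
Mean deviation of the members of each compartment from their own mean over the 6 arrays (log2, vertical axis), 1 symbol per array, with mean ± SD of 3 arrays in black. Cytosolic chaperones lie at -0.15 to -0.05 after antibiotics and 0.07 to 0.11 without, while the ER and mitochondrial groups overlap.

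ER minus cytosol was 0.02, 0.04 and 0.05 after antibiotics, against -0.12, -0.01 and 0.01 without. Without overlap, the groups were 0.01 apart at their nearest arrays, antibiotics replicate 1 and untreated replicate 3. The difference between the 2 class medians was 0.15. It rested on single arrays, since leaving out antibiotics replicate 1 gave -0.02 and leaving out untreated replicate 1 gave 0.00. In the first case the ER median was -0.13 (6 of 10 lower) and the cytosolic one -0.12 (16 of 19 lower), in the second -0.20 (7 of 10) and -0.20 (16 of 19). The gap between the class medians therefore did not hold in these 2 cases. It was 0.20 and 0.11 without antibiotics replicates 2 and 3, and 0.17 and 0.23 without untreated replicates 2 and 3. For the array means of ER minus cytosol, no array was left out.

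Among the cytosolic members, the 7 J proteins were all lower, at a median log2 difference of -0.23. Dnajc24, a J protein needed to make the diphthamide residue of elongation factor 2, had normalized log2 intensities of 7.25, 6.62 and 7.09 on the antibiotics arrays, against 7.31, 7.69 and 7.73 on the untreated ones. The groups did not overlap, although antibiotics replicate 1 and untreated replicate 1 were close. The log2 difference was -0.59 (SE 0.20, 95% interval -1.06 to -0.13), with an adjusted p of 0.559. Dnajb2, which delivers ubiquitylated clients, also showed no overlap, with 8.82, 8.85 and 9.08 after antibiotics against 9.48, 9.10 and 9.14 without. It was -0.32 (SE 0.16), and antibiotics replicate 3 and untreated replicate 2 lay close together.

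Dnajb1, the stress-inducible J protein that works with Hsp70, had 9.68, 9.86 and 9.85 after antibiotics against 10.11, 9.99 and 9.80 without. Untreated replicate 3 fell among the antibiotics arrays, and the log2 difference was -0.17 (SE 0.15). Leaving out antibiotics replicate 1 gave -0.11, and leaving out untreated replicate 1 gave -0.10. The ribosome-associated Dnajc2 stood at -0.23, Dnajb6, which holds back protein aggregation, at -0.24, and Dnajc7, which bridges Hsp70 and Hsp90, at -0.21. Dnaja2 spanned over 1 log2 unit in each group, from 5.13 to 6.16 after antibiotics and from 5.18 to 6.22 without, and lay at -0.07.

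All 4 tested CCT subunits were lower, with very different sizes. Cct6a, the zeta subunit, had 8.61, 8.92 and 8.73 after antibiotics, against 9.05, 9.26 and 9.26 without. Every antibiotics array lay below every untreated one. Its log2 difference was -0.44 (SE 0.15, 95% interval -0.78 to -0.10), the smallest p of any member and an adjusted p of 0.555. Cct8, the theta subunit, had 9.43, 9.93 and 9.85 after antibiotics against 9.73, 9.92 and 10.36 without, a log2 difference of -0.27 (SE 0.21) with overlapping groups. Without untreated replicate 3 it was -0.09, and without antibiotics replicate 1 it was -0.12. Cct3 and Cct4, the gamma and delta subunits, lay at -0.05 (SE 0.14) and -0.02 (SE 0.18), and Tcp1, the alpha subunit, which the naming rule leaves out, at 0.02 (SE 0.14). A second probe for Cct3, detected on 1 antibiotics array and 3 untreated ones, gave -0.32. Differences between subunits were not tested.

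Of the 5 Hsp70 and Hsp110 genes 4 were lower, at a median of -0.27, and none without overlap. Hspa8 had 12.78, 12.91 and 13.07 after antibiotics, against 13.01, 13.24 and 13.05 without. Antibiotics replicate 3 was above untreated replicates 1 and 3, and the log2 difference was -0.18 (SE 0.15, 95% interval -0.52 to 0.16). With either antibiotics replicate 1 or untreated replicate 2 left out, it was -0.11. Hsph1, the inducible Hsp110, had 9.73, 10.20 and 10.11 after antibiotics against 10.33, 10.14 and 10.43 without, a difference of -0.29 (SE 0.17). Only untreated replicate 2 lay within the range of the antibiotics arrays, and without antibiotics replicate 1 the difference was -0.14. Hspa1a, the heat-inducible Hsp70, spread most among the untreated arrays, at 10.70, 10.93 and 9.81, against 9.99, 10.08 and 10.56 after antibiotics. Its log2 difference was -0.27 (SE 0.29), with the lowest array of all in the untreated group. Without untreated replicate 3 it was -0.61, and without untreated replicate 2 it was -0.05. Hspa1b is a near-identical copy of Hspa1a, and the probe may read both. Hspa4, another Hsp110, stood at -0.27 and was detected on 2 of 3 antibiotics arrays, and Hspa2 at 0.00.

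Small heat shock proteins, which hold unfolded proteins without ATP, lay on both sides. Hspb6 had 8.15, 7.49 and 7.24 after antibiotics against 6.89, 7.48 and 7.25 without, and at 0.42 (SE 0.25) was the highest of all members. The size came from the highest and the lowest array, antibiotics replicate 1 and untreated replicate 1, and the other 4 arrays lay between 7.24 and 7.49. Without antibiotics replicate 1 the difference was 0.16. Hspb1 stood at -0.17 and Hspb2 at -0.01, both dim. Among the tested cytosolic genes with a promoter window, the 5 that hold the heat shock element pair had a median log2 difference of -0.24, and those without it also -0.24.

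**Figure D3:**
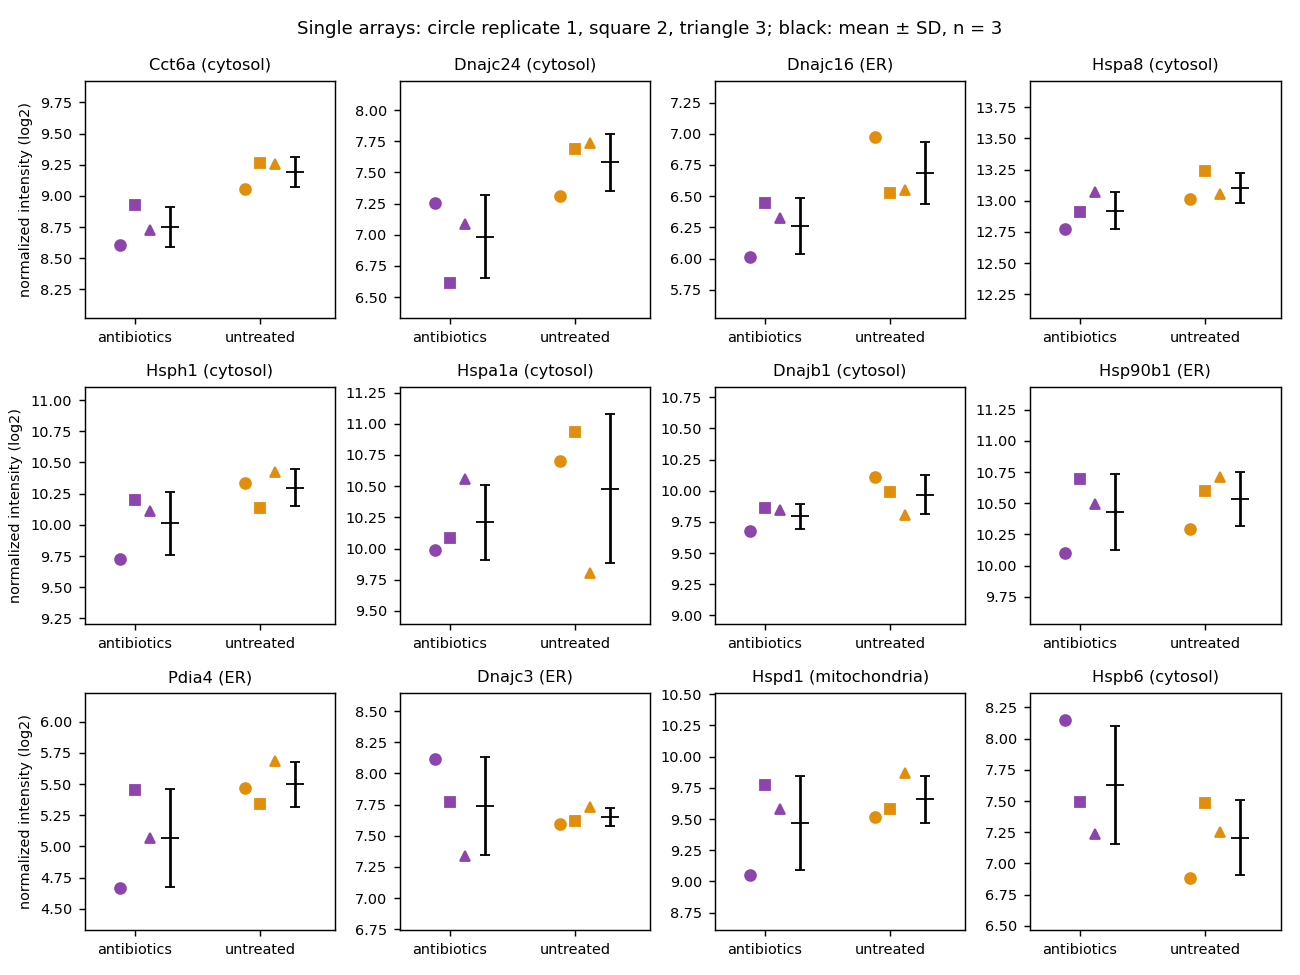
Normalized log2 intensity (vertical axis, the same span in each panel) of 12 chaperone genes on single arrays, antibiotics left and untreated right, with mean ± SD of 3 arrays in black. Cct6a, Dnajc24 and Dnajc16 show no overlap between groups, while in Hspa1a the lowest array belongs to the untreated group.

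None of the 10 tested ER members passed the test, and Hspa5, Calr and Canx could not be tested. Hsp90b1 (Grp94), which folds Toll-like receptors and integrins, had 10.10, 10.70 and 10.49 after antibiotics, against 10.29, 10.60 and 10.71 without. The groups overlapped, and the log2 difference was -0.10 (SE 0.19, 95% interval -0.55 to 0.34). Without antibiotics replicate 1 it was 0.06. Pdia3 (ERp57), the partner of calreticulin, had 7.84, 7.14 and 7.63 after antibiotics against 7.26, 7.87 and 7.53 without, and the difference of -0.02 (SE 0.23) has an interval of -0.53 to 0.50. These intervals leave room for changes of up to about that size in either direction. Pdia4 (ERp72) had 4.67, 5.45 and 5.07 after antibiotics against 5.47, 5.34 and 5.69 without. It was the lowest ER member at -0.43 (SE 0.21), with an adjusted p of 0.680, but its probe was detected on 1 of 3 antibiotics arrays and 3 of 3 untreated ones, close to background. Without antibiotics replicate 1 it was -0.24. Pdia5 was the highest at 0.18 (SE 0.19), with 7.72, 8.12 and 8.25 after antibiotics against 7.61, 7.96 and 7.99 without. Leaving out antibiotics replicate 1 gave 0.33, and leaving out untreated replicate 1 gave 0.05.

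The 6 ER members of the J protein family also included the only ER gene without overlap. Dnajc16, a J protein of the ER membrane, had 6.01, 6.44 and 6.33 after antibiotics against 6.97, 6.53 and 6.55 without. Its log2 difference was -0.42 (SE 0.18, 95% interval -0.84 to -0.0039), with an adjusted p of 0.634, and -0.28 without untreated replicate 1. Dnajc3, the BiP partner also known as p58IPK, had 8.12, 7.77 and 7.33 after antibiotics against 7.59, 7.62 and 7.73 without, and the antibiotics arrays spread above and below the untreated ones. The difference of 0.09 (SE 0.20) was -0.10 without antibiotics replicate 1. Dnajb9 (ERdj4), which is induced by the unfolded protein response, was almost equal on 5 arrays, at 7.20, 7.19 and 7.20 after antibiotics and at 7.16 and 7.14 on untreated replicates 1 and 2. Untreated replicate 3 stood at 7.80, and without it the difference of -0.17 (SE 0.20) was 0.05. Dnajc10 (ERdj5), a disulfide reductase, lay at 0.04. Its second probe gave 0.19, but was close to background at raw intensities of 98.2 to 110.8. That probe was detected on 3 antibiotics arrays and 1 untreated one. The membrane J proteins Dnajb12 and Dnajc18 lay at -0.01 and -0.18, and the dim Dnajc18 was detected on 1 antibiotics array and 2 untreated ones.

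Mitochondrial members stayed within -0.19 to 0.20, with 0 at an unadjusted p under 0.05. Hspd1 and Hspe1 encode the Hsp60 chamber and its Hsp10 lid. Hspd1 had 9.05, 9.77 and 9.58 after antibiotics against 9.52, 9.58 and 9.87 without, a log2 difference of -0.19 (SE 0.21) that was 0.02 without antibiotics replicate 1. Hspe1 had 6.61, 6.87 and 6.65 after antibiotics against 6.63, 6.83 and 7.19 without, a difference of -0.17 (SE 0.18) that was -0.02 without untreated replicate 3. Both genes overlapped between groups, with antibiotics replicate 1 lowest in each, and both have pseudogene copies whose signal the probes may share. Hspa9 (mortalin), the mitochondrial Hsp70, had 11.15, 11.11 and 10.99 after antibiotics against 11.19, 10.95 and 11.18 without, a difference of -0.02 (SE 0.14, 95% interval -0.35 to 0.30), while its dimmer second probe gave -0.38. Dnajc28 was the highest of the class, with 5.55, 5.40 and 5.15 after antibiotics against 5.16, 5.14 and 5.21 without, at 0.20 (SE 0.15), and at 0.11 without antibiotics replicate 1. Its probe was dim, at raw intensities of 102.1 to 115.2, and without background correction the difference was 0.07. Groups without overlap were seen for Dnajc4, lower at -0.17, and Dnajc30, higher at 0.13, both small differences between tight groups. Dnajc15, which restrains respiratory complex I, stood at -0.09, the import motor subunit Dnajc19 at -0.06 and Dnaja3 at 0.08.

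The 3 members outside these compartments were lower, none without overlap. Hspbap1, which binds the small heat shock protein Hspb1, had 6.96, 7.92 and 8.07 after antibiotics against 7.81, 7.99 and 7.92 without. Its difference of -0.26 (SE 0.27) came from antibiotics replicate 1, without which it was 0.09. Hspg2 had 5.86, 4.98 and 4.69 after antibiotics against 5.32, 5.23 and 5.12 without, at -0.04 (SE 0.27), and was detected on 1 of 3 antibiotics arrays. Dnajc5, the cysteine string protein of secretory vesicles, lay at -0.11.

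The lists of partner genes had 0 genes past an adjusted p of 0.05. Of 25 tested genes of ER folding and the unfolded protein response 12 were lower and 13 higher, at a median log2 difference of 0.00. Their summed normalized intensity was 19210 to 19890 after antibiotics against 17820 to 18950 without. Txndc5, an ER disulfide isomerase, was the only 1 at an unadjusted p under 0.05, with 8.34, 8.19 and 8.23 after antibiotics against 7.90, 7.82 and 7.52 without, at 0.51 (SE 0.15, adjusted p = 0.479). Of 24 tested cytosolic co-chaperones 14 were lower and 10 higher, at a median of -0.09. Hspbap1, already described as a member, is 1 of the 24, and no heat shock factor gene was tested. Ppid, a prolyl isomerase of the Hsp90 complex, had 9.41, 9.47 and 9.47 after antibiotics against 9.73, 9.71 and 9.88 without, at -0.32 (SE 0.13, adjusted p = 0.629). Txndc5 was higher and Ppid lower without overlap. In the ER folding list P4hb, at 0.27 (SE 0.13), and Edem2, at 0.26 (SE 0.14), were also higher without overlap. All other genes of that list overlapped between groups, and 13.7% of all rows did not overlap. Mitochondrial chaperones and proteases had 2 lower and 5 higher, at 0.04, and 0 at an unadjusted p under 0.05. Immediate early genes, which cells switch on during handling, had 3 lower and 8 higher, at 0.14, and 1 at an unadjusted p under 0.05, Egr2 at 0.80 (SE 0.23, adjusted p = 0.473).

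Summed markers of plasmacytoid DCs, B cells, cDC1, plasma cells and macrophages did not overlap between groups. The sums of the DC core, cDC2, Langerhans, T cell, NK, neutrophil and stroma lists overlapped, and erythroid genes were not tested. The DC core sum was 34000 to 34580 after antibiotics against 33230 to 34360 without. Of single rows 13.7% did not overlap, and that share was not worked out for sums. Such a sum is led by its brightest gene, Lyz2 for macrophages and Tcf4 for plasmacytoid DCs, and Tcf4 itself overlapped between groups. All 4 tested plasmacytoid DC markers were lower, with a summed normalized intensity of 708 to 801 after antibiotics against 853 to 1055 without, and 1 of the 8 listed, Ccr9, was detected on 0 arrays. All 3 tested B cell markers were lower, with sums of 238 to 279 after antibiotics against 307 to 364 without, while Ms4a1, Cd79a, Pax5 and Blk were detected on 0 arrays. Cd79b, the brightest of the 3, lay at -0.06 with overlapping groups. The dimmer Cd22 and Fcmr lay at -0.79 and -1.06, and each was detected on 2 of 3 antibiotics arrays. All 5 tested cDC1 markers were higher, with sums of 2265 to 2359 after antibiotics against 2003 to 2182 without, while Clec9a and Naaa were detected on 0 arrays. Irf8, the brightest of the 5, lay at 0.16 and Cadm1 at 0.78, both without overlap. Batf3, the next brightest, lay at 0.03, and Batf3, Itgae and Xcr1 overlapped between groups. Plasma cells are rich in ER chaperones. Their list had 3 of 4 tested genes higher, Txndc5 at 0.51, Xbp1 at 0.29 and Irf4 at 0.25, with Mzb1 lower at -0.16. The sums were 1250 to 1500 after antibiotics against 1023 to 1150 without. Xbp1, the brightest of the 4, overlapped between groups, and Sdc1, Jchain, Prdm1, Tnfrsf17 and Derl3 were detected on 0 arrays. Of 3 tested macrophage and monocyte markers 2 were higher, Lyz2 at 0.54 and Adgre1 at 0.33, with Cd14 at -0.08. Their sums were 1600 to 1816 after antibiotics against 1037 to 1433 without, and Mertk and Fcgr1 were detected on 0 arrays. The Langerhans cell marker Cd207 stood at 0.74, with overlapping groups of 171 to 236 after antibiotics against 86.9 to 185 without. Txndc5, Xbp1 and Derl3 stand in the ER folding list as well, and Irf4 stands in the cDC2 list. The part of these markers in the chaperone values was not tested.

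**Figure D4:**
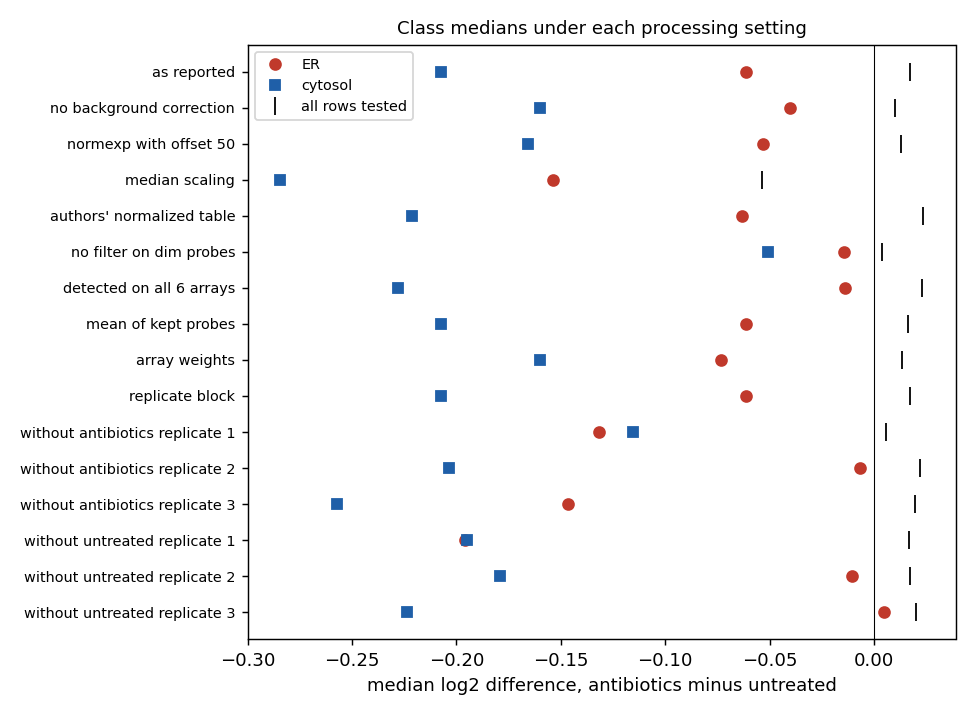
Median log2 difference (antibiotics minus untreated, horizontal axis) of ER members, cytosolic members and all rows tested, as reported and under 15 other settings. The cytosolic median lies between -0.28 and -0.05 and the ER median between -0.20 and 0.00, and they coincide to within 0.02 without antibiotics replicate 1 or untreated replicate 1.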

How the data were processed

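Illumina mouse bead arrays, 3 per group, measured RNA of sorted lymph node DCs. Whether the arrays come from separate animals is not stated, and p-values cover only the variation among these arrays, some of which could be technical. The authors deposited probe intensity without background correction or normalization, and, per the file headers, gave each probe a detection p-value on each array. Their other deposited table holds normalized intensity on a linear scale (44.6% below 0) by a method that the sources do not give. All 154182 cells of the series' value table equal it.

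The non-normalized intensity was processed with limma 3.58.1 in R 4.3.3 by neqc (background from the detection p-values, offset 16, quantile normalization, log2), which understates differences of dim probes. Probes with a detection p under 0.05 on 3 or more of 6 arrays were kept (7507 of 25697). In the platform annotation 23978 probes had 1 symbol, 0 had several and 1719 had none. The brightest kept probe stood for a gene, giving 6331 rows. lmFit and eBayes compared antibiotics with untreated, with Benjamini-Hochberg adjustment over all rows and a threshold of 0.05. Scripts were tested on simulated data. The naming rule took members at an unadjusted p under 0.05, a fixed list of main chaperones and CCT subunits, and the highest and lowest of each class; other members named fall outside it and were chosen after their values were seen. Members and lists were chosen with earlier results of these data known.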

Additional observations from a re-analysis of the deposited data

How the results depend on the processing

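None of the 15 alternatives called a row at an adjusted p of 0.05 (0 in each). The lowest adjusted p ran from 0.0940 (array weights) to 0.677, and 341 to 1094 rows had an unadjusted p under 0.05 (490 as reported). The cytosolic median log2 difference was -0.16 without background correction, -0.28 with median scaling, -0.16 with array weights and -0.051 when dim probes were kept, and ran from -0.26 to -0.12 without 1 array. The ER median was -0.15 with median scaling and ran from -0.20 to 0.0049 without 1 array. With median scaling the median of all rows was -0.05. ER minus cytosol was 0.036 without the filter, 0.21 with probes detected on all 6 arrays and 0.087 with array weights, and ran from -0.016 to 0.23 without 1 array. Without the filter, which adds dim members, 11 of 17 ER and 31 of 40 cytosolic members were lower. Without 1 array, 5 to 7 ER members and 15 to 17 cytosolic members were lower. These counts were added after the data were seen.

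Of 23 members named by rule, 13 kept their sign under every alternative that gave them a value. Dnajc3 was -0.0034 with median scaling and -0.062 with array weights, and Hspg2 was 0.21 with the authors' normalized table. Sign changes without 1 array gave ranges of -0.097 to 0.30 (Dnajc3), -0.24 to 0.060 (Hsp90b1), -0.17 to 0.18 (Pdia3), -0.28 to 0.046 (Dnajb9), -0.10 to 0.015 (Cct3), -0.13 to 0.14 (Cct4), -0.34 to 0.018 (Hspd1), -0.10 to 0.023 (Hspa9), -0.47 to 0.091 (Hspbap1) and -0.38 to 0.20 (Hspg2). The causes were not tested. The replicate block gave 0 rows past the threshold and 417 at an unadjusted p under 0.05, and left the medians at -0.06 (ER) and -0.21 (cytosol). Deviations of same-numbered arrays from their group means correlated at -0.0465, -0.0601 and -0.150. The labels give a replicate number and no pairing, and so few arrays cannot decide whether same-numbered ones were handled together. Slide as a block was not run, since the files name no slides.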
